A study of Mus musculus with 48 samples.

Results

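The comparison described here is the 4-h step from CT9 to CT13 in the colon of control mice. Circadian time (CT) counts the hours of the internal day in constant darkness, so CT9 lies late in the rest phase and CT13 early in the active phase of the nocturnal mouse. All members were the libraries of control colon at these 2 times, 4 mice at CT9 (SV401, SV412, SV415 and SV420) and 4 mice at CT13 (SV396, SV397, SV421 and SV424), 8 of the 48 mice sequenced, with all genes of the table. The control mice were male C57BL/6J mice with both copies of *Bmal1* floxed and no Villin-Cre transgene, and their littermates labelled Bmal1IEC-/- carried the same floxed gene and Villin-Cre, which is driven by a promoter of intestinal epithelial cells. All mice were 18 to 20 weeks old, were housed singly with a running wheel and free access to chow, and were killed on the second day of darkness. They gave colon RNA at CT1, CT5, CT9, CT13, CT17 and CT21, 4 mice per genotype and time, and each mouse gave 1 library. Whole colon tissue was used, so fewer cells of a type and less RNA per cell cannot be told apart.

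The circadian clock is a loop in which BMAL1 and CLOCK switch on the *Per* and *Cry* genes, whose proteins then block BMAL1 and CLOCK. A second loop runs through the REV-ERB repressors (*Nr1d1*, *Nr1d2*), which act on *Bmal1* and other genes. In tissues of the body, cues of feeding, body temperature and glucocorticoid hormone act on many rhythmic genes beside the local clock. The colon epithelium is renewed from dividing cells of the crypt.

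The 8 libraries held between 3567093 and 4290393 counts on genes, so that 3 counts, the number that a count of 0 allows, corresponded to 0.699 to 0.841 CPM (counts scaled to a common library size). Values are given as CPM, as mean ± SD over 4 mice, and in the order of the mice above where all 8 are listed. The 14618 genes with enough counts were tested with edgeR's quasi-likelihood test, and a gene was called when its Benjamini-Hochberg adjusted p was under 0.05 and its fold change at least 1.5. The p-values measure the spread between mice. The 8 epithelial markers summed to 6670 to 8101 CPM at CT9 and to 6716 to 8061 CPM at CT13. The 6 colonocyte markers summed to 12118 to 15152 CPM and to 12012 to 13658 CPM at these times. The 6 small intestine markers summed to 440 to 512 CPM and to 376 to 474 CPM. The 5 pancreatic markers summed to 34.95 to 57.4 CPM and to 39.9 to 54.5 CPM, with *Amy2a5*, *Cpa1* and *Prss2* at 0 in all 8 mice. The 7 smooth muscle markers summed to 5207 to 5637 CPM at CT9 and to 4150 to 5025 CPM at CT13, without overlap, although 0 of the 7 were called.

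Before the results, 2 mice stood between the groups. Over the genes called without SV420, this CT9 mouse lay at a median of 0.424 of the way from the other CT9 mice to the CT13 mice for genes that were higher at CT13, and at 0.344 for genes that were lower. The CT13 mouse SV421 lay at 0.381 and 0.375 of the way to CT9, measured likewise, whereas the other 6 mice lay between -0.116 and 0.15. Without SV420 the step had 478 genes called higher and 626 lower, and without SV421 it had 421 and 660, against 324 and 598 with all mice. Without SV424, which had the highest level of most heat shock genes named below, the counts were 250 and 373. The calls that held with all mice and without each of the 8 mice numbered 174 higher and 260 lower.

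*Arntl*, the gene deleted in Bmal1IEC-/- epithelium and listed under this name for *Bmal1* (chromosome 7, 113207465 to 113314126), is given first. It had 5.89, 4.13, 8.300 and 9.12 CPM in the CT9 mice and 10.5, 9.49, 6.76 and 4.49 CPM in the CT13 mice of the control group, and the groups overlapped (log2 fold change 0.19, adjusted p = 0.689). In the mice labelled Bmal1IEC-/- it had 29.6 ± 7.996 and 30.1 ± 3.403 CPM at the same times, and these means lay above those of the control mice. Control mice were low at these 2 times, with 67.5 ± 4.5 CPM at CT1 and 65.4 ± 6.14 CPM at CT21. The count covers all exons, the deleted part and the rest together, so it did not check the deletion, and the genotype is given as labelled.

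Among the genes tested, 324 (2.22%) were called higher at CT13 than at CT9 and 598 (4.09%) were called lower. An adjusted p under 0.05 without regard to fold was reached by 950 genes that were higher and 990 that were lower, together 13.3% of the genes. The median log2 fold change was 0.78 over the genes called higher, of which 96 changed more than 2-fold, and -0.95 over the genes called lower, of which 275 changed more than 2-fold, beside -0.018 over all genes. The CT13 mice all lay above the CT9 mice for 9.37% of all genes and all below for 10.2%, and these orders held in 278 of the genes called higher and 501 of the genes called lower.

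Chaperones led the genes that rose, and genes of mitosis and sterol synthesis were the lists with most falls. The 30 gene lists held 116 of the 922 genes called. In the list of heat shock genes 17 of 24 members were called higher and 1 lower, in that of endoplasmic reticulum stress 6 of 28 were called higher, in that of mitosis 26 of 28 were called lower, and in that of sterol synthesis 10 of 26 were called lower. Over all genes 2.22% were called higher and 4.09% lower. The medians of these 4 lists were 0.94, 0.30, -1.17 and -0.41 on the log2 scale. Without SV420 the same counts were 17, 9, 26 and 12, and without SV421 they were 17, 8, 26 and 10.

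**Figure D1:**
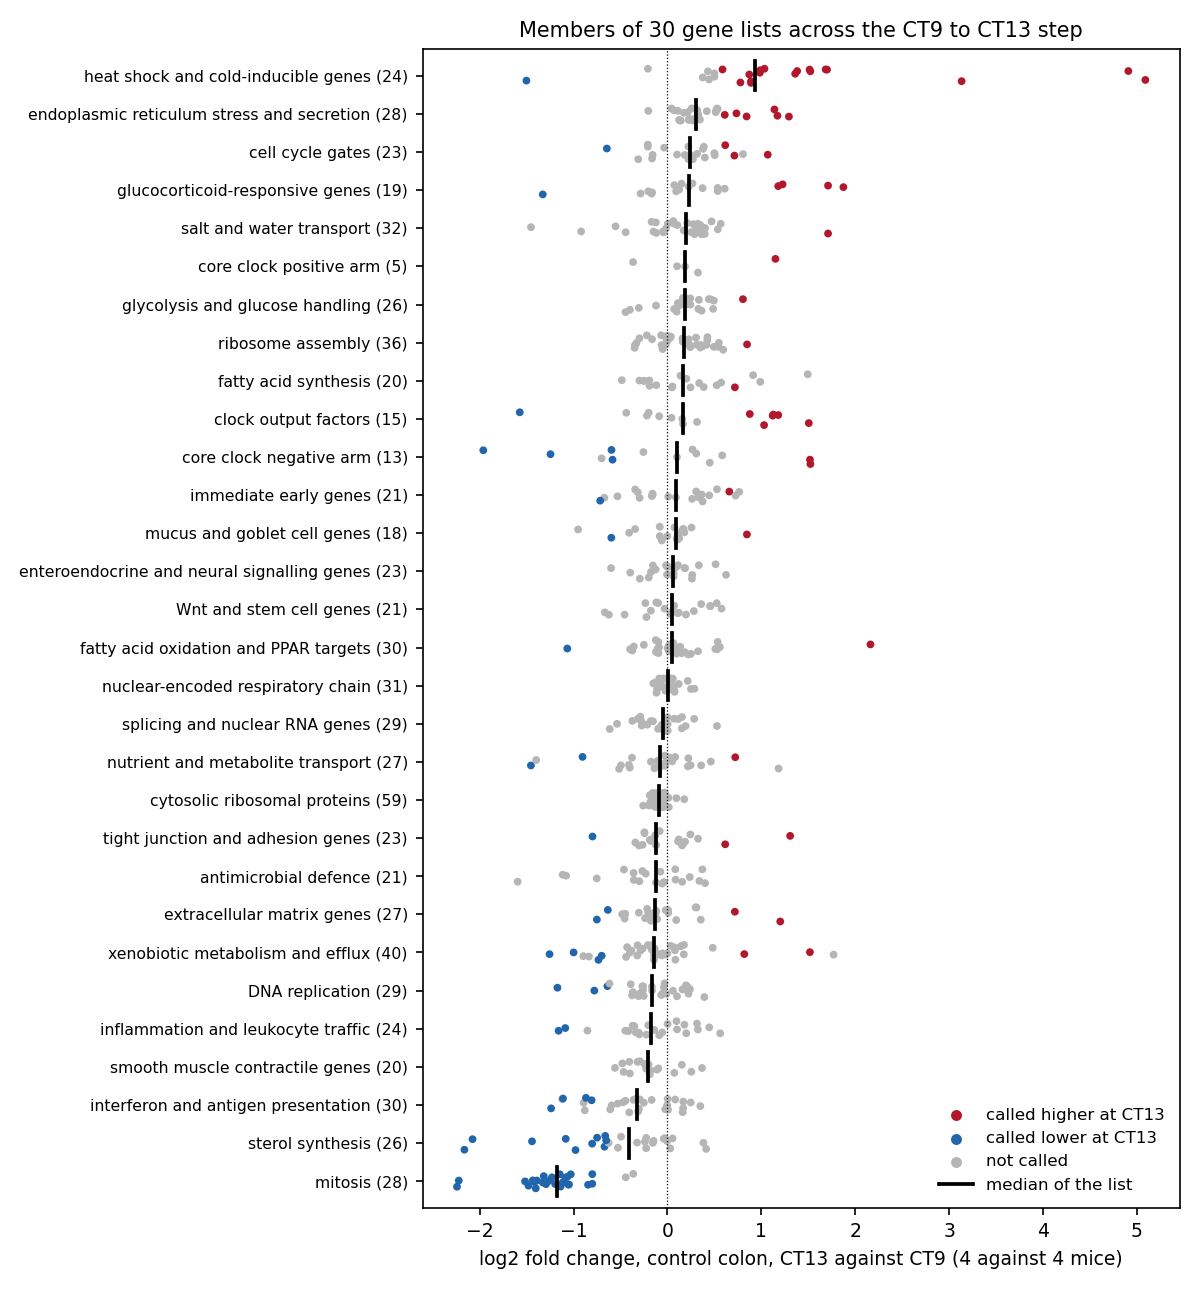
Each point is a gene tested, placed by its log2 fold change between CT13 and CT9 in control colon (x axis), in the row of its gene list (y axis, number tested in brackets), red where called higher, blue where called lower and grey where not called, with the list's median as a bar. The 28 mitosis genes all lie left of 0 and heat shock genes reach 5.09, while the 59 genes of the ribosomal protein list cluster near 0.

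The promoters of a few members of the lists with most calls are shown first, with the short sequences found in them. The 250 bases before the start of each gene were taken from RefSeq (GRCm38.p6), with 10875 of the tested genes matched, and searched on both strands for letters known as binding sequences. A match is a description and not a binding site. In the heat shock list GAANNTTC, a pair of the inverted units that the heat shock factor HSF1 binds, stood in 6 of 19 promoters (31.58%), beside 4.92% of all promoters, and the 6 genes were *Dnaja1*, *Fkbp4*, *Hspa1a*, *Hspa1b*, *Hspb1* and *Hspe1*. The E-box CACGTG, which BMAL1 and CLOCK bind, stood in 4 of 9 promoters of the negative arm of the clock (44.44%), those of *Bhlhe41*, *Ciart*, *Cry1* and *Per1*, beside 8.11% of all promoters. The CCAAT box, bound by NF-Y, was searched after the calls were known. It stood in 19 of 23 promoters of mitosis genes (82.61%), in 20 of 23 of the endoplasmic reticulum list (86.96%) and in 16 of 18 of the sterol list (88.89%), beside 35.82% of all promoters, although the first and the last of these lists fell and the other rose. TTTGAA, a part of the cell cycle element CHR and likewise added later, stood in 7 of 23 mitosis promoters (30.43%) beside 10.79% of all.

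Over all genes called, CCAAT stood in 39.13% of the promoters of genes called higher and in 44.8% of those called lower, beside 35.82% of all, and TTTGAA in 7.39% and 15.61%, beside 10.79%. Of the 230 promoters of genes called higher 7.39% held the E-box, 5.65% GAANNTTC and 10.87% AGGTCA, a motif of nuclear receptors, beside 8.11%, 4.92% and 10.6% of all promoters. Of the 442 promoters of genes called lower 5.2% held the E-box, 7.69% GAANNTTC and 13.8% AGGTCA. The cAMP response element TGACGTCA stood in 4.35% and 2.04% of the promoters of genes called higher and lower, beside 2.65% of all, and the D-box, TTATGTAA or TTACGTAA, in 0 of 230 and 3 of 442, beside 0.59%. With 0 of 230, a share of up to 3 promoters is allowed. The 3-unit heat shock element GAANNTTCNNGAA and the sterol element TCACNCCAC, both added later, stood in at most 0.9% of the promoters of either group. In the heat shock list the 3-unit element stood in 1 of 19 promoters (5.26%), that of *Hspe1*, beside 0.31% of all. In the sterol list the sterol element stood in 1 of 18 promoters (5.56%), that of *Hmgcs1*, beside 0.98% of all.

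The promoters are printed 5′ to 3′ up to the base before the start, with matches in capitals. GAANNTTC is marked in the 2 chaperone genes, the E-box in *Ciart*, and CCAAT, read on either strand, in *Ccnb2* and *Hmmr* (mitosis), *Hspa5* and *Creld2* (endoplasmic reticulum) and *Insig1* and *Hmgcs1* (sterols).
Hspa1b, chr17:34959239-34959488, minus strand: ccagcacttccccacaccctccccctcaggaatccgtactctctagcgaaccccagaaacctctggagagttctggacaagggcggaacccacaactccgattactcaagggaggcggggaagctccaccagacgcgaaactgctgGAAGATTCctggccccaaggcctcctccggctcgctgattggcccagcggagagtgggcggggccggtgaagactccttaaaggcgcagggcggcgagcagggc
Dnaja1, chr4:40722218-40722467, plus strand: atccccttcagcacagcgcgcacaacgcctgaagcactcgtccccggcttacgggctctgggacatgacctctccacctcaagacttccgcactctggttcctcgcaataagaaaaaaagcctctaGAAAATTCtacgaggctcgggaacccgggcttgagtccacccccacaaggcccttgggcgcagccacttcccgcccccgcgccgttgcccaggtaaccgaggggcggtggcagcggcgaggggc
Ciart, chr3:95882229-95882478, minus strand: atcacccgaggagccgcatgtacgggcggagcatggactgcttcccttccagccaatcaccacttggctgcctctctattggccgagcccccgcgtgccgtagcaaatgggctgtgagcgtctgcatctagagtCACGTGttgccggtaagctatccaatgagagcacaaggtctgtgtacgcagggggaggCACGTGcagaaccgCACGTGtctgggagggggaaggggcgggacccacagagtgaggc
Ccnb2, chr9:70421555-70421804, minus strand: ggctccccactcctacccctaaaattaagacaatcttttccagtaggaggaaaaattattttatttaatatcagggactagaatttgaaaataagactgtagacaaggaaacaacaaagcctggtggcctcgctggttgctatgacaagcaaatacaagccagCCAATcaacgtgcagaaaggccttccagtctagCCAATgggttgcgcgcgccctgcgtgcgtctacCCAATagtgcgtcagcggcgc
Hmmr, chr11:40733438-40733687, minus strand: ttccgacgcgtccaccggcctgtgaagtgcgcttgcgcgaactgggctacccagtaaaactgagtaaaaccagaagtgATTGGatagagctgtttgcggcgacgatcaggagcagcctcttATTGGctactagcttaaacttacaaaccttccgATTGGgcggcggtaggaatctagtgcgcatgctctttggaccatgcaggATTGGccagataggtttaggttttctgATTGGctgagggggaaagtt
Hspa5, chr2:34771840-34772089, plus strand: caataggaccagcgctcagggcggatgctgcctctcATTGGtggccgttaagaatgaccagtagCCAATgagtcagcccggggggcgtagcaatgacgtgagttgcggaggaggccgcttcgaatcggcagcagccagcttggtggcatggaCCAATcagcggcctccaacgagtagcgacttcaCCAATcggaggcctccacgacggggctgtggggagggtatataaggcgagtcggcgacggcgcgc
Creld2, chr15:88819396-88819645, plus strand: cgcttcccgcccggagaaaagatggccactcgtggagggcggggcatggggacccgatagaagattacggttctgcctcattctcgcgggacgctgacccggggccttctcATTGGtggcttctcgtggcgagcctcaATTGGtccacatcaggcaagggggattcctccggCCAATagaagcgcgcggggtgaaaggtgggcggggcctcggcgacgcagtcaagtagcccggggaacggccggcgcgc
Insig1, chr5:28071162-28071411, plus strand: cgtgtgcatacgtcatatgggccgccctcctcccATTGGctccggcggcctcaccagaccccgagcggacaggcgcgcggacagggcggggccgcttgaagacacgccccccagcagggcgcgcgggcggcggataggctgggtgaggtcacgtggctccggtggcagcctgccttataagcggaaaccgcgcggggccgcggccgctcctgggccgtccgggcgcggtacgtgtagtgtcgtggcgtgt
Hmgcs1, chr13:119690101-119690350, plus strand: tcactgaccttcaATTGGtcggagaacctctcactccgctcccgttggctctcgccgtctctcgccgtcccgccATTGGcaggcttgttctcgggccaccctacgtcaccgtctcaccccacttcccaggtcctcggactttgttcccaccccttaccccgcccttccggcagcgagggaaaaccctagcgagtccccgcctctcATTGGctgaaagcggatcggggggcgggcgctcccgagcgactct
The matches of *Hspa1b* and *Dnaja1* began 104 and 124 bases before the start, the start used for *Dnaja1* lying 318 bases from that of the GENCODE gene. The 3 E-boxes of *Ciart* began at 116, 58 and 44 bases before the start. *Ccnb2* held 3 CCAAT boxes, at 87, 54 and 21 bases, *Hmmr* held 5, *Hspa5* 4, *Creld2* and *Hmgcs1* 3 each and *Insig1* 1. Promoters were chosen for printing because they held a match. Others that were searched held none, *Hsph1* no GAANNTTC, *Nr1d1* and *Dbp* no E-box and *Cry1* no AGGTCA, and *Nfil3*, not printed, held 1 AGGTCA.

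Among called genes with a mean of at least 5 CPM and no overlap, the largest rises at CT13 were those of inducible chaperones, which bind unfolded proteins. *Hspa1b* (chromosome 17, 34956436 to 34959238 of mm10), the inducible HSP70, had 3.59, 4.95, 4.43 and 7.49 CPM in the CT9 mice and 97.95, 111, 47.1 and 453 CPM in the CT13 mice. All CT13 mice lay above all CT9 mice, but with the highest, SV424, far above the other 3, and the mean rose from 5.11 ± 1.68 to 177 ± 186 CPM (log2 fold change 5.09 ± 0.55 SE, adjusted p = 4.23e-08). Its near-identical neighbour *Hspa1a* rose from 2.43 ± 0.609 to 73.5 ± 84.1 CPM (adjusted p = 4.06e-07), and reads may be split between the pair or lost where they match both. *Hsph1*, which encodes the HSP110 partner of HSP70, was at 30.7, 39.4, 30.7 and 103 CPM at CT9 and at 402, 365, 209.6 and 831 CPM at CT13 (log2 fold change 3.13, adjusted p = 4.23e-08). The CT9 mouse SV420 was the highest of its group and SV424 the highest at CT13.

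Other abundant chaperones and co-chaperones rose less in fold. *Hspa8*, the constitutive HSP70, had 972, 1071, 953 and 1473 CPM at CT9 and 3197, 3015, 2181 and 4441 CPM at CT13 (log2 fold change 1.52, adjusted p = 2.11e-07), again without overlap. *Hsp90aa1*, the inducible form of HSP90, rose from 198 ± 53.8 to 639 ± 267 CPM (log2 fold change 1.69, adjusted p = 7.23e-07). Of the co-chaperones, *Dnaja1*, an HSP40, rose from 121 ± 28.2 to 394 ± 148 CPM (log2 fold change 1.70, adjusted p = 6.08e-08), and *Stip1*, which links HSP70 to HSP90, from 66.9 ± 10.99 to 192 ± 79.6 CPM (log2 fold change 1.51, adjusted p = 2.02e-07). With the same mouse order, *Dnaja1* had 103, 110.4, 107 and 163 CPM at CT9 and 336, 361, 270.4 and 608 CPM at CT13.

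The other called members of the list were *Hsp90ab1*, *Hspd1*, *Hspe1*, *Hspa4l*, *Dnajb1*, *Dnajb4*, *Bag3*, *Chordc1*, *Ahsa1* and *Fkbp4*, with log2 fold changes between 0.59 for *Hspd1* and 1.38 for *Chordc1*. *Hsf1* (0.44), *Hsf2* (0.50), *Hspa4* (0.43) and *Hspb8* (0.50) had adjusted p-values under 0.05 below the 1.5-fold limit. *Hspb1*, whose promoter held GAANNTTC, did not pass the test. The 1 member that was called lower, named after its value was seen, was the cold-inducible RNA-binding protein gene *Cirbp* (66.1 ± 19.8 to 23.2 ± 5.41 CPM, log2 fold change -1.503, adjusted p = 4.91e-06), while *Rbm3*, also cold-inducible, had -0.21 (adjusted p = 0.283). Leaving out each mouse in turn left 16 to 17 members called higher and a list median between 0.74 and 1.05.

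Over the 6 times of the control day the median level of the list was highest at CT13, 0.61 above the mean of the times on the log2 scale, and lay at 0.25 at CT17 and between -0.47 and -0.08 at the other times. *Hspa1b* averaged 23.7 CPM at CT17 and 8.85 CPM at CT21 after the maximum at CT13. The step in the mice labelled Bmal1IEC-/- went the same way. There the list median was 0.36, with 8 members called higher and 1 lower, and *Hspa1b* went from 6.32 ± 1.57 to 46.8 ± 27.6 CPM (log2 fold change 2.87, adjusted p = 0.0103) and *Hsph1* from 47.4 ± 12.8 to 199 ± 68.96 CPM (2.07, adjusted p = 0.0017). The difference between the genotypes' steps missed the threshold for both genes (difference 2.22 ± 0.82 SE and 1.07 ± 0.47 SE, adjusted p = 0.556 and 0.632).

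**Figure D2:**
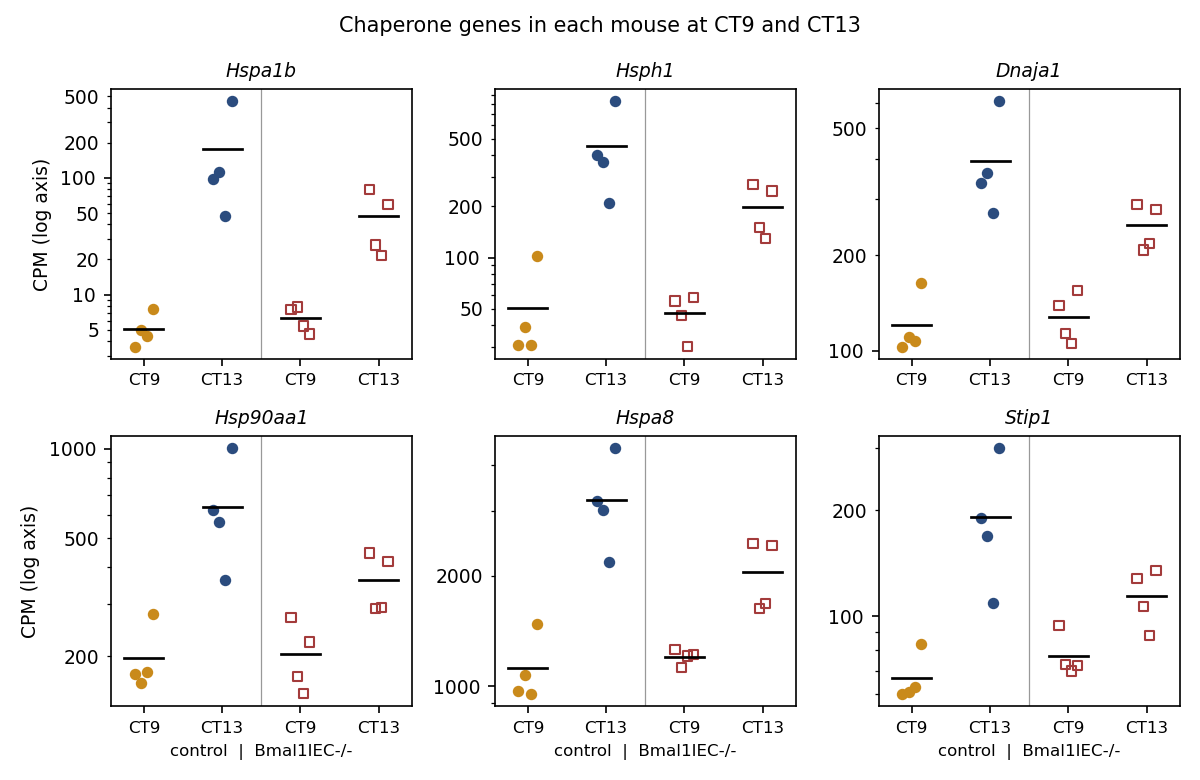
Points give the CPM (y axis, logarithmic) of 6 chaperone genes in each mouse at CT9 and CT13 (x axis), filled circles for control and open squares for Bmal1IEC-/-, with the mean as a bar, and the 4 positions in a group always stand for the same mice. In control colon all CT13 mice lie above all CT9 mice in the 6 panels, and the fourth CT9 mouse, SV420, is the highest of its group.

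Of the 28 genes of the endoplasmic reticulum list 6 rose, chaperones and folding enzymes among them. *Hspa5* (BiP), the main chaperone of this compartment, had 348, 309, 309.6 and 533 CPM at CT9 and 932, 826, 637 and 909 CPM at CT13 (log2 fold change 1.14, adjusted p = 0.000236), and its exchange factor *Hyou1* had 75.6, 80.4, 70.6 and 138 and 258, 232, 162 and 245 CPM (log2 fold change 1.29, adjusted p = 2.75e-05). In both genes SV420 was the highest CT9 mouse, and the groups did not overlap. *Creld2* (1.17, adjusted p = 0.000185), *Manf* (0.84, adjusted p = 0.00159), a factor released under stress of this compartment, and the disulfide isomerase gene *Pdia4* (0.61, adjusted p = 0.00391) rose too, as did *Sdf2l1* (0.73). Of the transducers of the stress response, *Atf4* (0.13), *Atf6* (0.26), *Xbp1* (0.07) and *Ddit3* (0.11) did not pass the test (adjusted p = 0.21, 0.0695, 0.608 and 0.758). In the mice labelled Bmal1IEC-/- *Hspa5* had a log2 fold change of 0.23 (adjusted p = 0.68), and the difference between genotypes missed the threshold (adjusted p = 0.489). Leaving out each mouse in turn gave 4 to 9 called members.

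In the negative arm of the clock, the *Per* and *Cry* genes moved unequally. *Per2* had 57.1, 86.97, 59.2 and 78.6 CPM at CT9 and 212, 191, 155 and 253 CPM at CT13 (log2 fold change 1.52, adjusted p = 4.06e-07). Its CT13 level was its highest of the 6 times, and its lowest, 10.04 ± 2.73 CPM, stood at CT1. *Cry1* had 10.2, 19.5, 9.96 and 21.8 CPM and 47.6, 51.9, 30.8 and 47.2 CPM (log2 fold change 1.52, adjusted p = 6.26e-08), and stayed near that level at CT17 (48.6 CPM) and CT21 (49.6 CPM). Both genes showed no overlap between the groups. *Cry2* (log2 fold change 0.58, adjusted p = 0.00991) and the casein kinase genes *Csnk1d* (0.31, adjusted p = 0.00383) and *Csnk1e* (0.45, adjusted p = 0.0327), whose products phosphorylate PER, passed the test below 1.5-fold. *Per1* (0.27, adjusted p = 0.616), *Per3* (-0.26, adjusted p = 0.384), *Bhlhe40* (0.10, adjusted p = 0.737) and *Bhlhe41* (-0.70, adjusted p = 0.186) did not pass it.

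The REV-ERB genes fell. *Nr1d1* (REV-ERBα) had 185, 145, 142 and 106 CPM at CT9 and 41.4, 40.7, 30.6 and 35.7 CPM at CT13 (log2 fold change -1.96, adjusted p = 6.26e-08), and went on down to 3.61 ± 1.14 CPM at CT21. *Nr1d2* (REV-ERBβ) fell from 215 ± 35.98 to 142 ± 13.7 CPM (log2 fold change -0.60, adjusted p = 0.0118). *Ciart*, a repressor of BMAL1 and CLOCK that carries the 3 E-boxes printed above, fell from 38.3 ± 6.31 to 16.1 ± 3.34 CPM (log2 fold change -1.25, adjusted p = 0.000605). These 3 genes showed no overlap between CT9 and CT13.

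In the positive arm, whose products switch the loop on, *Clock* (0.33, adjusted p = 0.219), *Npas2* (0.10, adjusted p = 0.753) and *Rora* (-0.37, adjusted p = 0.194) did not pass the test.

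Among the output factors, which carry the clock's timing to other genes, 6 of 15 were called higher and 1 lower. Over all genes the shares were 2.22% and 4.09%. *Dbp*, an activator at D-boxes, had 123, 109, 88.3 and 66.9 CPM at CT9 and 29.7, 36.5, 36.5 and 26.96 CPM at CT13 (log2 fold change -1.57, adjusted p = 2.72e-06), a peak at CT9 that was already over 4 h later. *Nfil3*, which represses at the same D-boxes, had 3.84, 2.48, 2.21 and 4.91 CPM at CT9 and 10.2, 10.3, 9.74 and 8.71 CPM at CT13 (log2 fold change 1.51, adjusted p = 2.75e-05), and climbed on to 25.4 ± 5.88 CPM at CT21. *Noct*, a nicotinamide nucleotide phosphatase, rose from 52.4 ± 13.9 to 107 ± 20.3 CPM (adjusted p = 0.000238), the deubiquitinase gene *Usp2* from 49.7 ± 8.59 to 91.3 ± 13.9 CPM (adjusted p = 0.00438) and *Klf10* from 31.7 ± 6.56 to 69.1 ± 5.42 CPM (adjusted p = 0.00609). *Lonrf3* rose from 2.09 ± 0.47 to 4.58 ± 0.484 CPM (adjusted p = 0.016) and *Tsc22d3*, which is also induced by glucocorticoids, from 36.8 ± 2.47 to 83.6 ± 29.4 CPM (adjusted p = 9.07e-05). *Tef* (-0.20), *Hlf* (-0.44), *Klf9* (-0.22), *Klf15* (-0.09), *Wee1* (0.31), *Tspan4* (0.17), *Nampt* (0.16) and *Leo1* (0.04) did not pass the test (adjusted p = 0.0853 to 0.878).

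Setting the step beside the same step in the mice labelled Bmal1IEC-/- asks which changes depended on epithelial *Bmal1*. The step itself was tested for a difference between genotypes, and 3 genes passed (0.0205% of the genes), *Cry1* and *Nfil3* among them, with 1069 genes at an unadjusted p under 0.05 and 8 calls by DESeq2. Both genes rose in control colon and were high at both times in the other genotype. *Cry1* had 59.2, 68.98, 70.2 and 71.4 CPM at CT9 and 66.2, 67.7, 65.3 and 74.3 CPM at CT13 there (log2 fold change 0.02, adjusted p = 0.971), a difference of 1.497 ± 0.23 SE (adjusted p = 0.000269). *Nfil3* had 23.7, 23.8, 24.3 and 24.96 CPM and 18.99, 23.4, 20.1 and 29.1 CPM (-0.08, adjusted p = 0.888), a difference of 1.59 ± 0.29 SE (adjusted p = 0.00826). In these mice every CT9 value of both genes lay above every CT9 value of the control group.

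**Figure D3:**
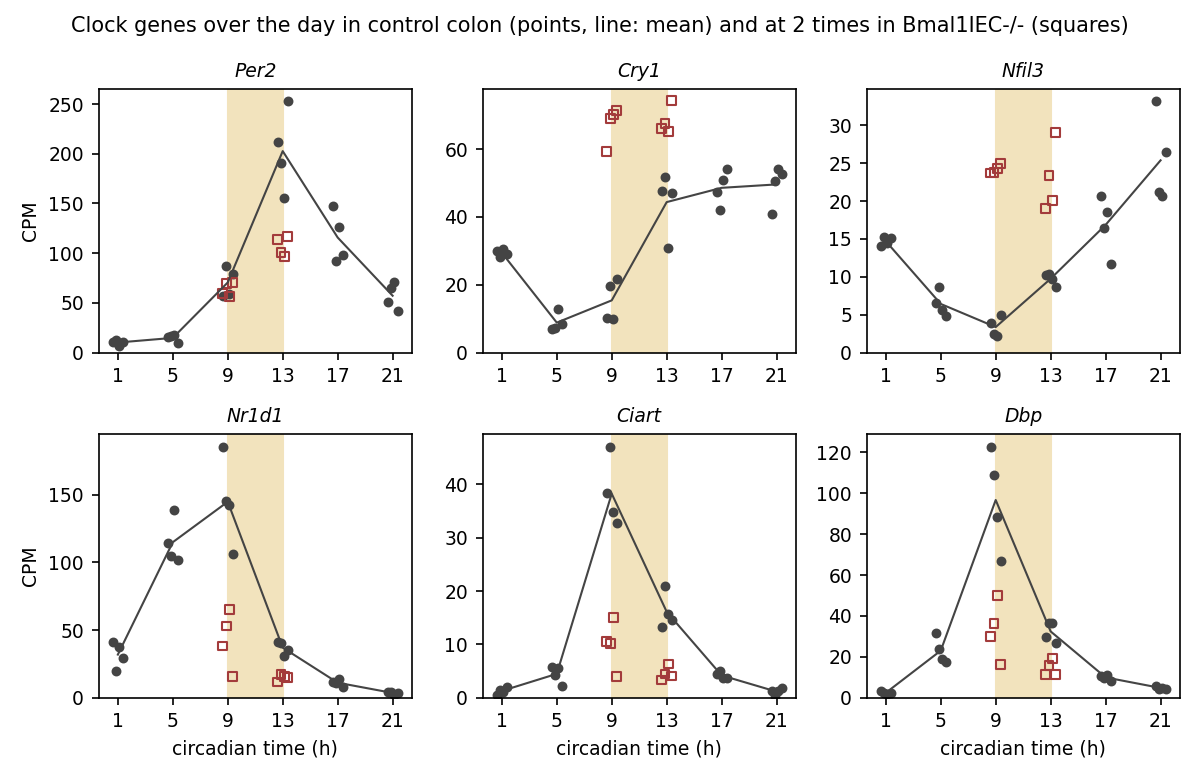
CPM (y axis) of 6 clock genes against circadian time in hours (x axis), with each control mouse as a point, the control mean as a line, the Bmal1IEC-/- mice at CT9 and CT13 as open squares and the step shaded. Across the shaded step Per2, Cry1 and Nfil3 go up and Nr1d1, Ciart and Dbp go down in control colon, while the squares of Cry1 and Nfil3 stay near one height.

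The next genes by p-value in each direction of this test had adjusted p-values between 0.168 and 0.323 and are given as values. *A4gnt*, *Reep6* and *Morc4* had log2 fold changes of 0.38, 0.95 and 1.25 in control colon and of -0.22, -0.23 and 0.07 in the other genotype. *Cyb561d1*, *Clec2h*, *Acot2*, *Col8a1* and *Vsig10* had -0.92, -1.32, -1.07, -2.03 and -0.39 in control colon beside -0.08, -0.34, 0.425, -0.26 and 0.06. The immunoglobulin segment *Ighv2-5*, a member of a family of close copies, had 0, 0.275, 0 and 23.2 CPM in the control CT9 mice. Its log2 fold change in control colon was -2.87 (adjusted p = 0.225). In the other genotype it went from 0.133 ± 0.156 to 29.9 ± 59.3 CPM (log2 fold change 7.52), an SD above the mean, so its values rest on few mice. *Nr1d1* (-1.52, adjusted p = 0.0017) and *Dbp* (-1.20, adjusted p = 0.0103) fell in the mice labelled Bmal1IEC-/- as well, from 43.00 ± 21.4 and 33.1 ± 13.9 CPM, and *Per2* rose there (log2 fold change 0.74, adjusted p = 0.0492). The differences of these 3 steps between genotypes missed the threshold (adjusted p = 0.818, 0.846 and 0.49).

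Fewer genes were called in the step of the other genotype, 27 higher (0.185%) and 57 lower (0.39%). Of the 324 genes called higher in control colon 288 (88.9%) had a positive log2 fold change there, beside 46.4% of all genes, with a median of 0.33. Of the 598 genes called lower 548 (91.6%) had a negative one, beside 53.6% of all genes, with a median of -0.39. Calls in both genotypes numbered 18 higher, which is 5.6% of the control calls and 66.7% of the others, and 42 lower, which is 7% and 73.7%. The genes were chosen by their control values, so their sizes of change in the 2 genotypes are not compared. The count in the mice labelled Bmal1IEC-/- rested on single mice, as it was 1 higher and 2 lower without SV450 at CT13, and 69 and 143 without SV418 at CT9.

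**Figure D4:**
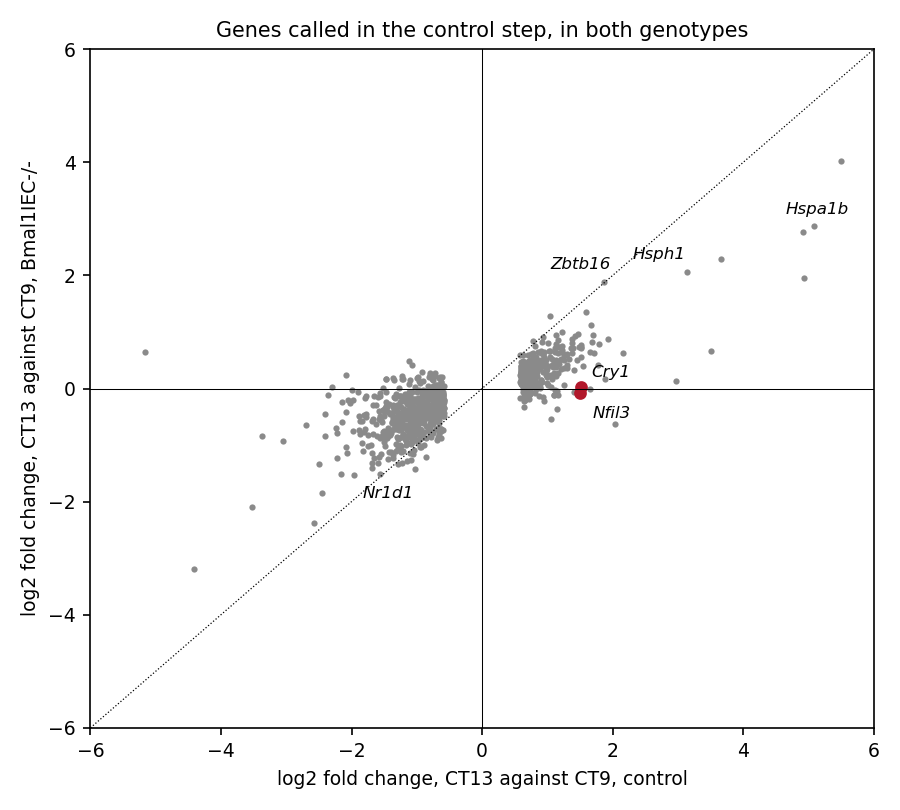
Each point is 1 of the 922 genes called in control colon, at its log2 fold change between CT13 and CT9 in control mice (x axis) and in mice labelled Bmal1IEC-/- (y axis), with equal change on the dotted line. The sign is shared by 288 of the 324 genes called higher and 548 of the 598 called lower, and Cry1 and Nfil3 (red), whose step differed between genotypes, lie near 0 on the y axis.

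Mitosis genes fell together. *Ccnb2*, a cyclin of the entry into mitosis, had 34.8, 33.6, 33.5 and 20.4 CPM at CT9 and 9.99, 11.997, 13.3 and 9.83 CPM at CT13 (log2 fold change -1.44, adjusted p = 4.18e-05), and *Hmmr*, a protein of the spindle, had 27.1, 28.3, 27.1 and 14.7 CPM and 5.71, 3.35, 7.302 and 3.93 CPM (log2 fold change -2.24, adjusted p = 2.64e-06). SV420 was the lowest CT9 mouse in both, yet above all CT13 mice. *Cdc25c*, the phosphatase that switches on the mitotic kinase, fell from 6.94 ± 1.55 to 1.44 ± 0.388 CPM (log2 fold change -2.22, adjusted p = 0.000356). *Ccna2* fell from 37.6 ± 4.32 to 15.03 ± 2.05 CPM, *Bub1b*, of the spindle checkpoint, from 29.2 ± 4.75 to 13.5 ± 1.897 CPM, and *Nusap1*, of the spindle, from 26.8 ± 4.796 to 9.296 ± 3.18 CPM (adjusted p = 6.37e-05, 5.23e-05 and 5.35e-05). All 28 members had an adjusted p under 0.05 and were lower at CT13. Only *Plk1* (-0.36) and *Cdc25b* (-0.44), named after their values were seen, stayed under 1.5-fold. Leaving out each mouse in turn left 25 or 26 called.

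The list of DNA replication moved less, with 3 of 29 members called lower, beside 4.09% of all genes, and a median of -0.17. Among those called were *Mcm10* (log2 fold change -0.78, adjusted p = 0.0118) and *Gins2* (log2 fold change -1.17, adjusted p = 0.0124). Without SV401, and likewise without SV424, 0 members were called. The median level of mitosis genes was 0.55 above the mean of the times at CT1 and CT5, 0.25 above at CT9, and 0.89 and 0.97 below at CT13 and CT17, whereas that of replication genes was lowest at CT13 (-0.50) and already at 0.08 at CT17. Of 23 genes that gate the cycle 3 were called higher and 1 lower, beside 2.22% and 4.09% of all genes. *Ccnd3* (log2 fold change 0.71, adjusted p = 0.00161), which drives entry into the cycle, *Cdc25a* (log2 fold change 0.62, adjusted p = 0.00265) and the stress-response gene *Gadd45b* (log2 fold change 1.07, adjusted p = 0.00943) rose. *Plk2* (log2 fold change -0.65, adjusted p = 0.0445) fell. In the mice labelled Bmal1IEC-/- the mitosis list had a median of -0.69 with 3 members called lower, and the replication list one of -0.52 with 2 called lower, further from 0 than in control mice. These differences of list medians were not tested. For *Hmmr* the step there was -0.70 (adjusted p = 0.241) and the difference between genotypes -1.54 ± 0.41 SE (adjusted p = 0.323). The 5 markers of stem and crypt base cells summed to 67.9 to 83.3 CPM at CT9 and to 54.4 to 73.7 CPM at CT13, with *Olfm4* at 0, and their part in the result was not tested.

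Of 26 genes of cholesterol synthesis and uptake, most of which answer to SREBP2, 10 fell. *Insig1*, the retention protein of the SREBP pathway, had 148, 126, 89.6 and 63.6 CPM at CT9 and 20.7, 20.1, 30.8 and 23.6 CPM at CT13 (log2 fold change -2.16, adjusted p = 0.000238). The CT9 mice varied widely and still all lay above the CT13 mice. Squalene synthase *Fdft1* fell from 119 ± 33.9 to 55.9 ± 7.52 CPM (log2 fold change -1.08, adjusted p = 0.000398) and HMG-CoA synthase *Hmgcs1* from 163 ± 49.99 to 82.5 ± 9.98 CPM (log2 fold change -0.98, adjusted p = 0.00239). *Fdps*, *Idi1*, *Msmo1*, *Cyp51* and *Sqle* fell too (log2 fold changes -1.44 to -0.65). *Dhcr7*, a late enzyme of the pathway, had a positive value (0.41) with an adjusted p under 0.05, below 1.5-fold.

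In the other genotype 6 members were called lower and the median was -0.51. *Hmgcs1* (-0.97) and *Fdft1* (-0.98) fell there with adjusted p = 0.0226 and 0.0136, and their differences between genotypes were -0.01 ± 0.31 and -0.10 ± 0.29 SE. In the control day the median level of the sterol list lay 0.38 above the mean of the times at CT1, at -0.13 at CT5, at 0.08 at CT9 and at -0.28 at CT13. The rise from CT5 to CT9 was not tested. Leaving out each mouse in turn gave 5 to 12 members called lower, the 5 being without SV401.

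**Figure D5:**
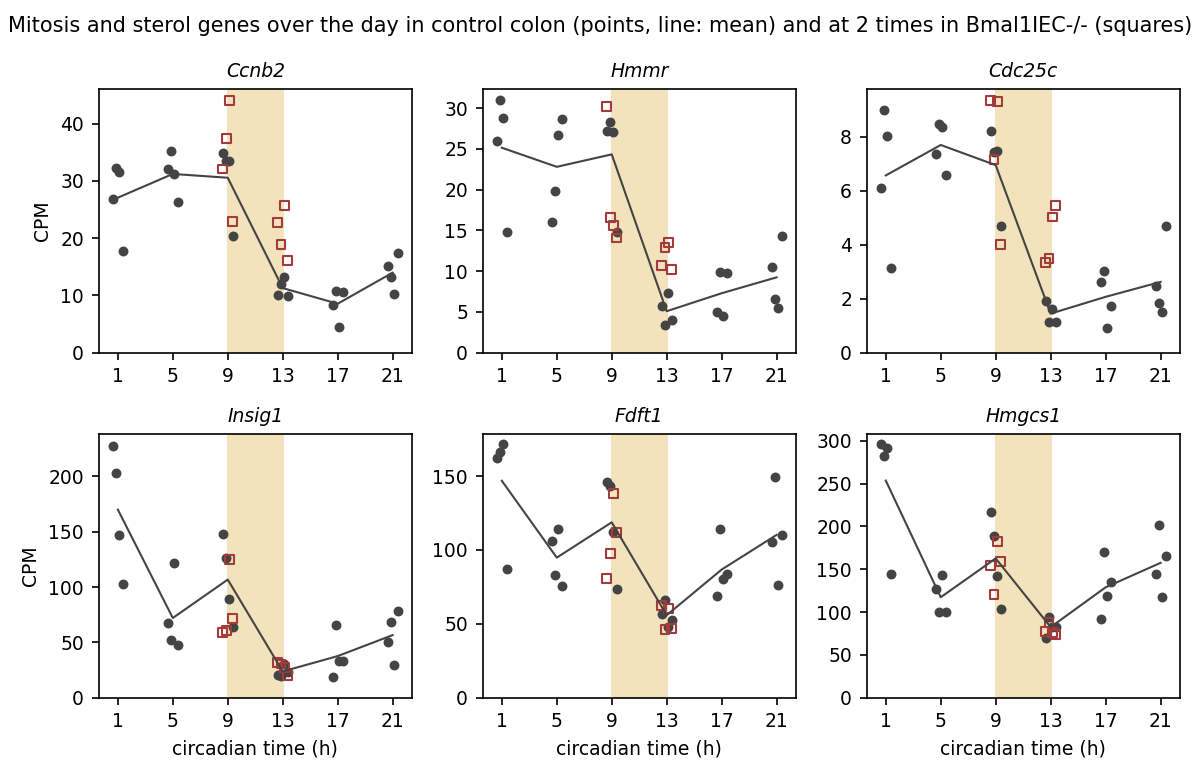
CPM (y axis) of 3 mitosis genes (top) and 3 sterol genes (bottom) against circadian time in hours (x axis), drawn as for the clock genes. Ccnb2, Hmmr and Cdc25c are high from CT1 to CT9 and low from CT13 to CT21. The mean lines of Insig1, Fdft1 and Hmgcs1 are highest at CT1 and higher at CT9 than at CT5, a rise that was not tested.

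Of 19 genes that answer to glucocorticoids 4 rose and 1 fell, beside 2.22% and 4.09% of all genes. *Sgk1*, a kinase that raises sodium uptake in the colon, had 66.6, 68.3, 96.3 and 165 CPM at CT9 and 317, 323, 253 and 408 CPM at CT13 (log2 fold change 1.71, adjusted p = 3.24e-05), and *Fkbp5*, a co-chaperone of the receptor, had 168, 246, 207 and 474 CPM and 628, 695, 537 and 707 CPM (log2 fold change 1.23, adjusted p = 0.000225). SV420 was the highest CT9 mouse in both, and the groups did not overlap. *Zbtb16* rose from 7.19 ± 5.84 to 26.9 ± 9.02 CPM (log2 fold change 1.87, adjusted p = 0.00222) and also in the other genotype (1.89, adjusted p = 0.0278), where *Fkbp5* also rose (1.001, adjusted p = 0.0214). *Tsc22d3* is given above, and the tyrosine aminotransferase gene *Tat* fell from 46.9 ± 16.1 to 18.6 ± 6.46 CPM (log2 fold change -1.33, adjusted p = 0.00147). *Per1*, *Dusp1*, *Ddit4*, *Pdk4* and 8 more did not pass the test. In the list of salt and water transport *Sgk1* was the 1 call among 32 genes, beside 2.22% of all genes called higher. The sodium channel subunits *Scnn1a* (0.07, adjusted p = 0.791) and *Scnn1b* (-0.17, adjusted p = 0.65) did not pass the test.

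The remaining large rises came from genes of several kinds. *Angptl4*, a secreted inhibitor of lipoprotein lipase, rose from 4.298 ± 1.005 to 19.4 ± 8.603 CPM (log2 fold change 2.16, adjusted p = 0.000271), *Tmc7* from 6.35 ± 1.23 to 24.4 ± 5.54 CPM (log2 fold change 1.93, adjusted p = 3.46e-05) and *Tnfrsf12a*, the receptor of TWEAK, from 4.61 ± 1.07 to 15.98 ± 2.08 CPM (log2 fold change 1.77, adjusted p = 9.26e-06). *Ereg*, a ligand of the EGF receptor, rose from 6.06 ± 1.07 to 17.6 ± 5.57 CPM (log2 fold change 1.52, adjusted p = 0.00128). The large falls included *Nupr1*, a stress-response regulator, which had 724, 640.1, 760.3 and 456 CPM at CT9 and 129, 166, 156 and 159.8 CPM at CT13 (log2 fold change -2.08, adjusted p = 8.41e-06). *Neil3*, a DNA glycosylase, fell from 11.8 ± 3.17 to 2.02 ± 1.26 CPM (log2 fold change -2.50, adjusted p = 8.64e-06). *Acta1*, skeletal muscle actin, fell from 10.7 ± 2.22 to 2.01 ± 0.883 CPM, endothelin 1 (*Edn1*) from 21.6 ± 8.95 to 4.84 ± 1.63 CPM, the collagen gene *Col8a1* from 31.3 ± 6.002 to 7.63 ± 1.82 CPM and the β-glucan receptor gene *Clec7a* from 7.71 ± 2.54 to 1.96 ± 0.546 CPM (adjusted p = 0.000577, 0.0049, 9.07e-05 and 0.000617). The pseudogenes *Cyp2d37-ps* (-2.23) and *Apol10c-ps* (-2.05) share sequence with gene copies, so their values are uncertain.

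In the lists of barrier and transport genes, tight junctions had 2 of 23 genes called higher and 1 lower, mucus 1 of 18 each way, and nutrient transport 1 of 27 higher and 2 lower, beside 2.22% and 4.09% of all genes. *Cldn2*, a claudin that lets cations and water through, had 243, 225, 269 and 538 CPM at CT9 and 921, 813, 674 and 747 CPM at CT13 (log2 fold change 1.31, adjusted p = 0.00122). *Cgn* (cingulin) rose from 179 ± 21.3 to 274 ± 32.04 CPM (log2 fold change 0.61, adjusted p = 5.43e-05), *Cldn23* fell from 32.7 ± 4.002 to 18.7 ± 4.93 CPM (log2 fold change -0.80, adjusted p = 0.0125), and 20 of the 23 genes of tight junctions and adhesion were not called. *Spdef*, a transcription factor of goblet cells, rose from 181 ± 54.9 to 326 ± 34.1 CPM (log2 fold change 0.85, adjusted p = 0.00317) and *Fut2*, a fucosyltransferase of the mucus, fell from 427 ± 64.6 to 282 ± 27.8 CPM (log2 fold change -0.60, adjusted p = 0.000601). The peptide transporter gene *Slc15a1* fell from 9.196 ± 1.02 to 3.33 ± 0.569 CPM (log2 fold change -1.45, adjusted p = 0.000398) and the fructose transporter gene *Slc2a5* from 10.6 ± 3.77 to 5.61 ± 0.935 CPM (log2 fold change -0.91, adjusted p = 0.0249), and the mitochondrial carrier gene *Slc25a25* rose from 30.01 ± 3.84 to 49.6 ± 4.63 CPM (log2 fold change 0.72, adjusted p = 0.0108).

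Among 40 genes of xenobiotic metabolism 2 rose and 4 fell, beside 2.22% and 4.09% of all genes. *Alas1*, the first enzyme of heme synthesis, had 122, 147, 177 and 242 CPM at CT9 and 402, 678, 347 and 547 CPM at CT13 (log2 fold change 1.52, adjusted p = 0.000111), and the carboxylesterase gene *Ces1d* rose from 214 ± 22.5 to 378 ± 22.1 CPM (log2 fold change 0.82, adjusted p = 9.45e-05). *Cyp2s1* fell from 150.003 ± 17.4 to 90.1 ± 9.27 CPM, the epoxide hydrolase gene *Ephx1* from 57.8 ± 5.801 to 35.6 ± 3.96 CPM and the export pump gene *Abcc2* from 14.03 ± 5.45 to 5.81 ± 2.45 CPM (adjusted p = 0.000815, 0.00391 and 0.00435). The fourth fall was that of *Cyp2d34*, one of several close copies, and is uncertain. In metabolism of glucose and fat the calls were *Pck1*, of gluconeogenesis, which rose from 239 ± 27.02 to 417 ± 59.4 CPM (log2 fold change 0.80, adjusted p = 0.000551), *Dgat2*, of triglyceride synthesis, which rose from 61.4 ± 10.6 to 101 ± 12.4 CPM (log2 fold change 0.72, adjusted p = 0.0295), and the thioesterase gene *Acot2*, which fell from 6.45 ± 1.02 to 3.05 ± 0.63 CPM (log2 fold change -1.07, adjusted p = 0.00664), beside *Angptl4*. The median of the oxidation list (0.048) turned to -0.004 under upper quartile scaling. Called higher were 1 of 26 genes of glycolysis, 1 of 20 of fatty acid synthesis and 1 of 30 of fatty acid oxidation. Called lower were 0, 0 and 1 of them, and over all genes 2.22% were called higher and 4.09% lower.

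The calls in the immune lists were all lower at CT13, 4 of 30 interferon genes and 2 of 24 inflammation genes, beside 4.09% of all genes. Among 30 interferon and antigen presentation genes *Ifit1* (-0.81), *Ifit2* (-0.87), *Oasl2* (-1.11) and *Gbp6* (-1.24) fell (adjusted p = 0.0106 to 0.0407), and the list had 0 calls without SV412, 1 each without SV396 and SV424 and 2 without SV401. *Oasl2* had 95.02, 112, 27.9 and 67.9 CPM at CT9 and 19.7, 50.2, 40.3 and 30.3 CPM at CT13, with overlap. Among 24 genes of inflammation *Casp4*, which senses bacterial lipopolysaccharide in the cell, fell from 34.5 ± 4.47 to 16.2 ± 2.204 CPM (log2 fold change -1.09, adjusted p = 9.45e-05) and *Socs3*, a brake on cytokine signals, from 26.8 ± 11.8 to 11.95 ± 0.552 CPM (log2 fold change -1.16, adjusted p = 0.00108). None of 21 antimicrobial genes was called, with 1 at an adjusted p under 0.05. The 6 T cell markers summed to 17.5 to 25.9 CPM at CT9 and 16.2 to 18.1 CPM at CT13, the 6 macrophage markers to 157 to 200.3 and 165 to 203 CPM, and the neutrophil markers *Mpo* and *S100a8* were at 0.

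Of 27 genes of the matrix 2 were called higher and 2 lower, beside 2.22% and 4.09% of all genes, and the list median was -0.14. *P4ha1* (log2 fold change 1.20, adjusted p = 5.43e-05) and *Serpinh1* (log2 fold change 0.72, adjusted p = 0.0288), which hydroxylate and fold collagen, rose, and *Col3a1* (log2 fold change -0.64, adjusted p = 0.0244) and *Thbs1* (log2 fold change -0.75, adjusted p = 0.0146) fell. *Col3a1* was at 524, 545, 472 and 582 CPM at CT9 and 329, 302, 352 and 383 CPM at CT13. The 6 fibroblast markers, of which *Col3a1* is one, summed to 1222 to 1513 CPM at CT9 and 989 to 1315 CPM at CT13. With the smooth muscle markers given above, 20 contractile genes had a median of -0.21 and 0 calls. The part of these cell types in the falls was not tested. Of 21 immediate early genes 1 was called higher and 1 lower, beside 2.22% and 4.09% of all genes. *Ier5* rose (log2 fold change 0.66, adjusted p = 0.00542) and *Klf6* fell (log2 fold change -0.72, adjusted p = 0.012). *Fos* (0.76), *Egr1* (-0.67) and *Jun* (0.01) did not pass the test (adjusted p = 0.186, 0.438 and 0.979).

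Large gene groups without calls were the 59 genes of the ribosomal protein list (median -0.091), the 31 genes of the respiratory chain (0.004, but -0.048 under upper quartile scaling), the 29 splicing genes (-0.052), the 23 enteroendocrine and neural genes (0.061) and the 21 Wnt and stem cell genes (0.052, but -0.001 under that scaling). The ribosomal protein list also holds the elongation factor genes *Eef1a1* and *Eef2*, and 55 of its members had negative values. In these 5 lists, in that order, the members at an adjusted p under 0.05 numbered 0, 0, 2, 0 and 2. *Nop16* (log2 fold change 0.85, adjusted p = 0.000574) was the 1 call among 36 genes of ribosome assembly, beside 2.22% of all genes called higher. Without SV420 that list had 6 genes called higher.

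Some of the calls named above did not hold when 1 mouse was left out, several of them whichever of a number of mice it was. Those of *Cldn23*, *Lonrf3*, *Dgat2*, *Plk2*, *Serpinh1*, *Slc2a5*, *Col3a1* and *Thbs1*, and the adjusted p of *Csnk1e*, each lost an adjusted p under 0.05 without at least 1 of the 8 mice. In the called genes *Abcc2*, *Slc2a5*, *Ier5*, *Serpinh1* and *Ifit1*, as in *Oasl2*, the CT9 and CT13 mice overlapped. Whether the counting used the strand is not given in the sources used here, so reads of a gene and of an overlapping antisense gene cannot be told apart.

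The opposite step of the day, from CT21 to CT1 in control colon, was set beside this one, with other mice at both times. It called 722 genes higher (4.94%) and 733 lower (5.01%) at CT1. Of the genes called higher at CT13, 152 (46.9%) were called lower at CT1 than at CT21, which is 20.7% of those calls, and 1 was called higher. Of the genes called lower at CT13, 276 (46.2%) were called higher at CT1, which is 38.2% of those calls, and 1 was called lower. The median log2 fold change from CT21 to CT1 was -0.62 over the genes called higher at CT13 and 0.63 over those called lower, beside 0.009 over all genes. For the mitosis list it was 0.94, with 24 members called higher at CT1.

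Over the 6 control times 226 of the 324 genes called higher (69.8%) had their highest mean at CT13 and 63 at CT17. Their lowest mean stood at CT1 in 177 (54.6%) and at CT9 in 100. Of the 598 genes called lower, 409 (68.4%) had their lowest mean at CT13 and 130 at CT17, and their highest mean stood at CT1 in 316 (52.8%) and at CT9 in 195. Among all genes 19.9% had their highest mean at CT13 and 22.2% their lowest, and CT1 was the most common time for both, with 3798 and 3698 of the 14618 genes. The times that define the step took part in choosing these genes, so the shares at CT9 and CT13 are a description.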

How the data were processed

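RNA of whole colon from 48 male mice was sequenced as stranded mRNA libraries in paired ends. The authors trimmed the reads with Trimmomatic 0.39, aligned them to mm10 with STAR 2.7.5c and counted read pairs of mapping quality 4 or more on exons with featureCounts 1.4.6, and the deposited table holds these raw counts per gene, not normalized, for 55401 genes. The annotation release and the strand setting of the counting are not given in the sources used here, and the authors state that samples of low quality were removed. Identifiers were paired with symbols and mm10 positions through GENCODE vM21 (55141 matched). Groups followed the labels, which name no batch.

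Genes were kept by edgeR's filterByExpr (14618), scaled by TMM and fitted with edgeR 4.0.16 (R 4.3.3, quasi-likelihood F test, two-sided) with 1 mean for each of 12 groups over all 48 mice, and p-values were adjusted by Benjamini-Hochberg over all genes tested in each contrast. Contrasts were CT13 against CT9 in each genotype, their difference, and CT1 against CT21 in control mice. A standard error is the log2 fold change divided by the square root of F. CPM used TMM-scaled library sizes, and the time course used log2 of mean CPM plus 0.5. Total counts were between 3144997 and 4785844 per mouse, and intervals of counting error are not given because the spread between mice is. Libraries of 1 group differed by more than sampling noise in all pairs, so none was counted once for 2. Promoters came from RefSeq (GRCm38.p6). The fit was tested on simulated counts.

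Named genes were all members of the clock lists, the 12 largest rises and falls among called genes without overlap between groups and with a mean of at least 5 CPM in the higher group, up to 5 called members of each other list by p-value, and the 6 genes of smallest p in each direction of the genotype difference. Other genes were named after their values were seen, and some genes that the rule names are not reported here. The members, gene lists and tests were chosen with earlier results of these data known, and the lists are described by counts and medians with no list test. DESeq2 1.42.0, other scalings, filters, fits and the omission of each mouse were tried as alternatives.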

Additional observations from a re-analysis of the deposited data

Results flagged for a closer look

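In 23 of 220 groups of 4 control mice (the named genes at CT9 and CT13) 1 mouse lay far from the other 3, by Dixon's test on the gap over the range, which chance passes in about 1 in 20 groups. In 14 of these it was SV420 at CT9, the mouse that lay between the groups in the report. It was the highest of its group for 10 genes, where *Cgn* had 211 CPM beside 167 to 169 CPM, *Cldn2* had 538 CPM beside 225 to 269 CPM, *Dnaja1* had 163 CPM beside 103 to 110.4 CPM, *Hsp90aa1* had 278 CPM beside 163 to 177 CPM and *Hsph1* had 103 CPM beside 30.7 to 39.4 CPM. For the rest of these genes, *Hyou1* had 138 CPM beside 70.6 to 80.4 CPM, *Ighv2-5* had 23.2 CPM beside 0.00 to 0.275 CPM, *Morc4* had 12.2 CPM beside 7.71 to 7.94 CPM, *Stip1* had 83.3 CPM beside 60.2 to 63.1 CPM and *Tmc7* had 8.19 CPM beside 5.63 to 5.81 CPM. It was the lowest for 4 genes, where *Casp4* had 27.8 CPM beside 36.6 to 37.1 CPM, *Ccnb2* had 20.4 CPM beside 33.5 to 34.8 CPM, *Ces1d* had 181 CPM beside 223 to 229.8 CPM and *Hmmr* had 14.7 CPM beside 27.1 to 28.3 CPM. In each of these genes except *Ighv2-5* and *Ces1d* its value was displaced towards the CT13 mice.

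At CT13 SV424 was the highest of its group, as *Hspa1a* had 199 CPM beside 20.3 to 38.5 CPM and *Hspa1b* had 453 CPM beside 47.1 to 111 CPM. SV396 was the highest for 1 gene, as *Klf6* had 151 CPM beside 117 to 122 CPM, and the lowest for another, as *Per1* had 89.9 CPM beside 121 to 124 CPM. SV421 was the lowest where *Manf* had 73.02 CPM beside 102 to 108 CPM, and SV397 the highest where *Slc15a1* had 4.18 CPM beside 2.98 to 3.09 CPM. At CT9 SV401 was the highest where *Apol10c-ps* had 8.71 CPM beside 5.23 to 5.38 CPM, SV415 where *Clock* had 89.9 CPM beside 76.1 to 77.9 CPM and SV412 where *Usp2* had 62.5 CPM beside 43.8 to 46.5 CPM.

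The step from CT9 to CT13 differed between control mice and mice labelled Bmal1IEC-/- by the edgeR test of the difference in *Cry1* (1.5 on the log2 scale) and *Nfil3* (1.59), which are described in the report.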

How the results depend on the processing

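No named gene with an adjusted p under 0.05 changed direction under the alternatives run. The sign turned in 4 named genes that did not pass the test, *Npas2*, *Klf15*, *Leo1* and *Ighv2-5*, each without 1 or another mouse, and in *Leo1* also under upper quartile scaling. Of 93 named genes with an adjusted p under 0.05 in the step, 2 lost it under a setting with all mice, *Csnk1e* under upper quartile scaling and *Slc2a5* without the filter on low counts, and 15 lost it without 1 of the mice. The genes called higher at CT13 numbered 27 and those called lower 36 when tested against the fold of 1.5 (glmTreat), and 950 and 990 by adjusted p alone. Leaving out 1 mouse gave 250 to 478 higher, lowest without SV424 and highest without SV420, and 373 to 660 lower, lowest without SV424 and highest without SV421. The difference between genotypes gave 0 genes with glmTreat, 201 without the filter on low counts, 1 with only the groups of the contrast fitted, 8 with DESeq2 and 2 to 6 without 1 mouse, the count of 6 being without SV420. In the mice labelled Bmal1IEC-/- the step gave 0 and 0 genes higher and lower with glmTreat, 97 and 217 without the filter, and 14 and 22 with only the groups of the contrast, and 91 lower with 46 mice and 89 lower with DESeq2. Without 1 mouse it gave 1 to 69 higher and 2 to 143 lower. The step from CT21 to CT1 gave 23 higher and 28 lower with glmTreat. The causes were not tested. Genes called higher were 35.1% of calls, 36.2% with RLE factors and 25.6% with upper quartile scaling, where the medians of fatty acid oxidation (0.048 to -0.004), respiratory chain (0.004 to -0.048) and Wnt genes (0.052 to -0.001) changed sign. No paired analysis was possible because the groups share no replicate numbers. Depth limits genes near 3 counts, 0.699 to 0.841 CPM.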
